A study of Homo sapiens with 16 samples.

Results

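The 10 genes described here encode the network of transcription factors built around MYC and its partner MAX. They are MYC, MYCN and MYCL, the shared partner MAX, and the antagonists MXD1, MXI1, MXD3, MXD4, MNT and MGA. They were taken by gene symbol from 57500 annotated genes. The rule uses no measured value, though it was set with earlier results of these data known. Each gene had a count value in each of 16 bulk RNA-seq libraries, which was 0 for MYCN in some. All libraries came from NCI-H929, a human cell line grown from a multiple myeloma, which is a cancer of plasma cells. The first experiment set cells given compound 27, a degrader of the acetyltransferase p300 (3 nM, 6 h), beside cells given the solvent DMSO. The second set cells labelled p300 KO (knockout) beside cells labelled NTC. Each of the 4 groups had 4 libraries. The labels do not say how the knockout was made, whether it is a clone, what NTC stands for, or whether replicates were separate cultures. The p-values therefore measure only the spread between these libraries, which may be technical.

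MYC proteins bind DNA as heterodimers with MAX through a basic helix-loop-helix leucine zipper, mostly at the E-box CACGTG, and raise transcription of genes for ribosome assembly, metabolism and cell growth. The MXD proteins and MNT compete for MAX and for the same sites, and bring in the SIN3 corepressor complex. MGA, the largest member, pairs with MAX within the PRC1.6 Polycomb complex. In plasma cells MYC is normally low, while in myeloma it is often driven by immunoglobulin or other strong enhancers and is tied to the plasma cell factor IRF4. The acetyltransferase p300, encoded by EP300, acts at such enhancers.

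The antagonists MXD4 and MNT were the members whose promoters held the E-box itself, and their upstream sequences are shown for that reason. In RefSeq on GRCh38.p14, 9 of the 10 members had promoter windows, each from 250 bases before to 50 bases after a start, and the motif CACGTG was found in those of these 2 genes. It was also found in 7.26% of all 35116 windows, in at least 1 window of 8.77% of 27305 genes. The motif reads the same on both strands, a match describes the letters and not a bound site, and MYC has no entry in that table. The 250 bases upstream of the RefSeq start are printed on the gene's own strand, with the E-box in capitals. They lie at chr4:2262110-2262359 (minus strand) for MXD4 and at chr17:2401061-2401310 (minus strand) for MNT.
MXD4: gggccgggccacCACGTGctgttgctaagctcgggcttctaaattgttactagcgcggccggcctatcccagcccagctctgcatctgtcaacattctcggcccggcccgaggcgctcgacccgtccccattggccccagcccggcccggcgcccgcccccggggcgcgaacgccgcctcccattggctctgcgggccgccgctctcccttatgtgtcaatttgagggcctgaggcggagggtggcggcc
MNT: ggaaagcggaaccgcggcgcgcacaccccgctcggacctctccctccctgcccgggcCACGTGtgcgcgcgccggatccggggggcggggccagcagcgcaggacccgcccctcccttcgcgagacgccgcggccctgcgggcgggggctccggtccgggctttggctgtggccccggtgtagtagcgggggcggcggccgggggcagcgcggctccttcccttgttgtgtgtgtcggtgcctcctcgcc
The E-box lay 238 to 233 bases upstream of the RefSeq start in MXD4 and 193 to 188 bases upstream in MNT. The gene positions used for the counts begin further upstream, at 2262294 for MXD4 and 2401118 for MNT. By those positions each printed stretch lies partly inside the gene. Without degrader 2, MXD4 (0.52) and MNT (−0.77) had the largest log2 fold changes among the antagonists with the degrader. MXI1, whose windows held no CACGTG, was at −0.44 in that fit. With all degrader libraries MNT was at −0.50, MXD4 at 0.36, MXI1 at −0.36 and MGA, also without the motif, at 0.33. None of these had an edgeR adjusted p under 0.05. In p300 KO MXD4 was at 0.01 and MNT at −0.46 with all libraries, and at 0.10 and −0.55 without p300 KO 1. Whether the motif bears on these changes was not tested.

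Total counts ran from 12.6 M to 23.1 M per library (M for 1e6 counts). A pair of libraries stood apart: mitochondrial genes took 64.9% of the counts in degrader 2 and 47.7% in p300 KO 1, against 5.99% to 23.5% in the other 14 libraries. These left 4.42 M and 8.66 M nuclear counts, against 13.6 M to 20.7 M elsewhere, and fold changes of members are given with and without them. Degrader 1, 3 and 4 were at 5.99%, 6.29% and 6.96%, below all DMSO libraries (13.4% to 23.5%). The share thus still differed between treated and control libraries without degrader 2, and its part in those fits was not tested. In p300 KO 2, 3 and 4 it was 10.2%, 10.7% and 11.4%, against 8.91% to 10.3% in NTC. All 10 plasma cell and myeloma markers were detected in every group, with a summed level of 8974 to 16488 CPM with the degrader, 11802 to 14965 CPM in DMSO, 10214 to 12075 CPM in p300 KO and 11500 to 11721 CPM in NTC. The T cell markers CD3E, CD3D, TRAC and CD8A summed to 13.5 to 27.4 CPM with the degrader, 40.2 to 44.8 CPM in DMSO, 28.2 to 33.6 CPM in p300 KO and 41.2 to 45.7 CPM in NTC, and CD3D was at 0 with the degrader and in DMSO. The NK cell markers NKG7, GNLY and KLRD1 summed to 1.73 to 2.78 CPM with the degrader, 3.95 to 4.43 CPM in DMSO, 17.8 to 32.6 CPM in p300 KO and 29.2 to 31.6 CPM in NTC. The monocyte markers CD14, CSF1R and LYZ summed to 0.543 to 0.927 CPM with the degrader, 1.14 to 1.56 CPM in DMSO, 3.97 to 4.21 CPM in p300 KO and 6.13 to 9.75 CPM in NTC. Both sums were thus below the DMSO range in all degrader libraries, as was that of the T cell markers, and in p300 KO the T cell and monocyte sums were below the NTC range. Sums of 3 epithelial markers were 8.56 to 14.2 CPM, and those of 3 erythroid and of 3 fibroblast markers 0.0535 to 1.67 CPM, over all libraries. The part of these marker sums in the results was not tested. EP300 RNA stood at 41.2, 34.9, 31.2 and 34.1 CPM in p300 KO, against 92.7, 85.4, 83.9 and 87.7 CPM in NTC, a log2 fold change of −1.25 ± 0.11 (SE; edgeR adjusted p = 2.20e-04). CPM are counts divided by the library total in M, after scaling by TMM over all 16 libraries.

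MYC RNA was lower in both perturbed groups than in its control, and the libraries did not overlap in either experiment. MYC (ENSG00000136997, plus strand of chromosome 8, 127735434 to 127741434, GRCh38) had 33.7, 30.8, 34.4 and 26.9 CPM in degrader 1 to 4, against 52.4, 70.8, 35.8 and 56.3 CPM in DMSO 1 to 4. Every degrader library was below every DMSO library, though degrader 3 and DMSO 3 were close to each other. The means were 31.4 ± 3.40 CPM with the degrader and 53.8 ± 14.4 CPM in DMSO (SD, n = 4 each), so DMSO varied more than the treated cells. The log2 fold change was −0.76 ± 0.19, a fold of 0.591, which edgeR's quasi-likelihood test did not call (adjusted p = 0.0632). Without degrader 2 it was −0.77 ± 0.17 (adjusted p = 0.00294), and without DMSO 3 it was −0.91 (adjusted p = 0.0274), and both passed the threshold of 0.05. The other 6 leave-outs of 1 library gave −0.79 to −0.60 with adjusted p from 0.137 to 0.180. DESeq2 called it (adjusted p = 0.0111), as did edgeR fitted on all 16 libraries (0.00772), and limma-voom did not (0.0599). Counting these and the leave-outs, 4 of 16 other settings called MYC, with edgeR adjusted p up to 0.315 in the rest. Within DMSO the library lowest in MYC, DMSO 3, had the highest mitochondrial share (23.5%), and the library highest in MYC, DMSO 2, had the lowest (13.4%). Whether that share bears on MYC was not tested. In bulk RNA, fewer cells with MYC and less MYC RNA per cell cannot be told apart.

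In the knockout the fall in MYC was called under each setting tried. MYC had 32.9, 50.9, 44.2 and 44.5 CPM in p300 KO 1 to 4, against 91.8, 82.7, 81.1 and 83.8 CPM in NTC 1 to 4. All 4 knockout libraries were far below all 4 NTC libraries, and p300 KO 1, the library rich in mitochondrial counts, was the lowest. The means were 43.1 ± 7.47 CPM in p300 KO and 84.8 ± 4.74 CPM in NTC (SD, n = 4 each). The log2 fold change was −0.93 ± 0.10 (edgeR adjusted p = 5.06e-04), and −0.85 ± 0.06 without p300 KO 1 (adjusted p = 1.56e-16). MYC was called in 16 of 16 other settings, 8 of which left out 1 library, with adjusted p up to 0.0178. The effect in the knockout less the effect of the degrader was −0.20 ± 0.24 (adjusted p = 0.691), and −0.10 ± 0.19 (0.719) without both mitochondria-rich libraries, so a difference between them was not detected at this spread.

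**Figure D1:**
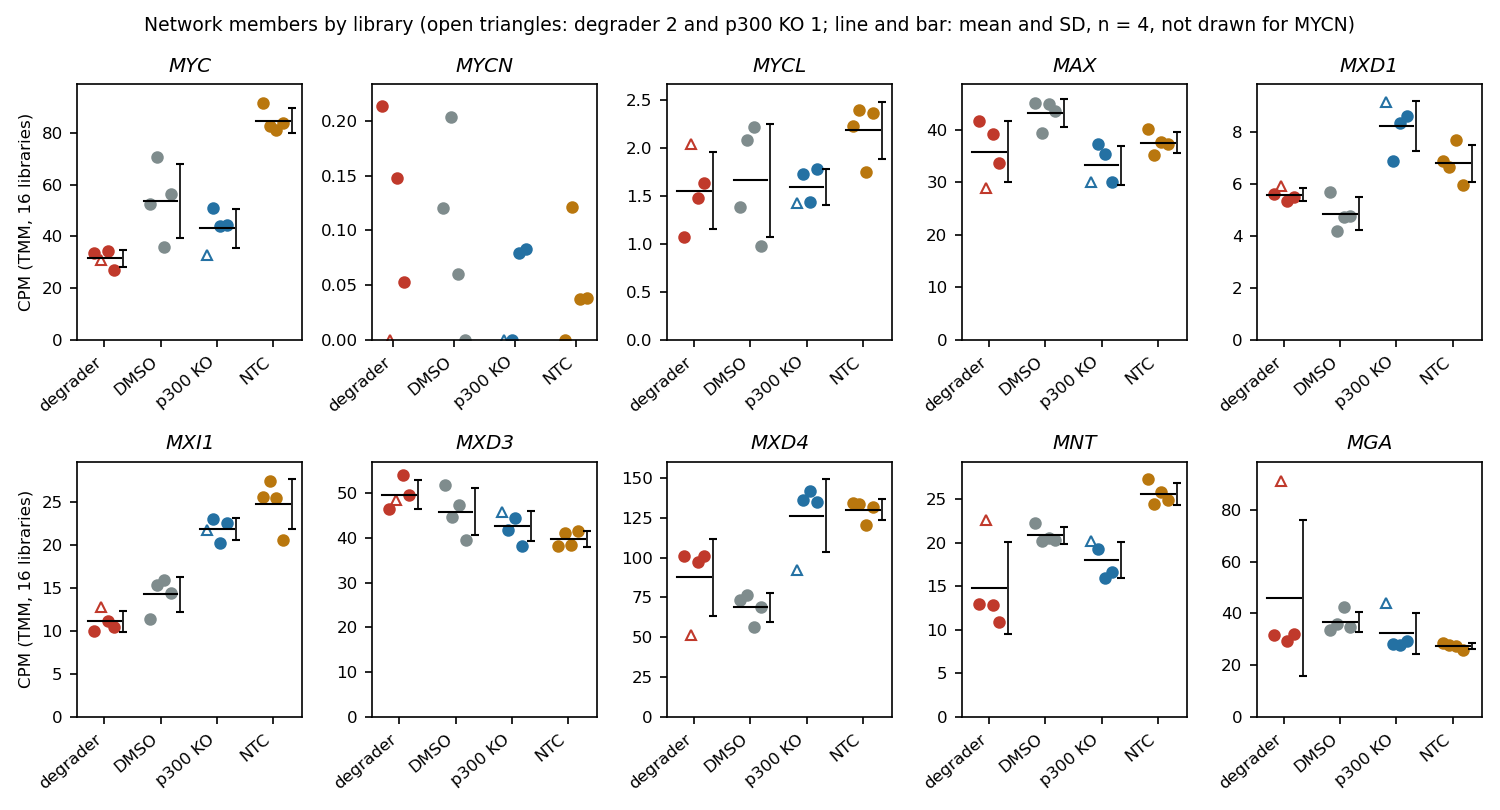
Level of each member in each library, in CPM scaled by TMM over 16 libraries (each panel has its own vertical axis from 0), with degrader left of DMSO and p300 KO left of NTC. Each point is a library, open triangles mark degrader 2 and p300 KO 1, and lines and bars give the mean and SD of 4 libraries (not drawn for MYCN); MYC is lower in both perturbed groups with no overlap, and degrader 2 lies far from the other degrader libraries in MXD4, MNT and MGA.

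The other MYC family genes were far below MYC, and MYCN was at or near the limit of detection. MYCN, the paralogue best known from neuroblastoma, had 0 to 4 counts in each of the 16 libraries. A count of 0 allows up to 3 counts, which is 0.130 to 0.238 CPM depending on the library, so MYCN had too few counts for any test. MYCL, the paralogue best known from small cell lung cancer, had 1.07, 2.04, 1.48 and 1.63 CPM with the degrader, against 1.38, 2.09, 2.22 and 0.975 CPM in DMSO. It had 1.43, 1.72, 1.43 and 1.78 CPM in p300 KO, against 2.23, 2.40, 1.75 and 2.36 CPM in NTC. The groups overlapped in both experiments. The log2 fold changes were −0.12 ± 0.33 with the degrader (edgeR adjusted p = 0.874) and −0.40 ± 0.17 in p300 KO (0.138). These rest on 11 to 62 counts per library. Per kilobase of exon MYCL stood at 0.31 to 0.43 CPM as a group mean, against 10.5 to 28.3 CPM for MYC.

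MAX, the obligate partner of both MYC and its antagonists, was not called in either experiment. MAX (ENSG00000125952, chromosome 14 from 65006174 to 65102695, minus strand) had 41.7, 28.9, 39.2 and 33.7 CPM with the degrader, against 45.2, 39.4, 44.9 and 43.6 CPM in DMSO. It had 30.1, 37.3, 35.5 and 30.04 CPM in p300 KO, against 40.1, 35.3, 37.7 and 37.3 CPM in NTC. The ranges overlapped in both experiments, and the lowest degrader library was degrader 2. MAX had a log2 fold change of −0.26 ± 0.13 with the degrader (edgeR adjusted p = 0.308) and −0.12 ± 0.08 in p300 KO (0.303). Without the mitochondria-rich library it was −0.19 ± 0.09 (0.133) and −0.12 ± 0.06 (0.139).

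Among the MXD repressors MXD4 had the highest mean level per exon length, and its response to the degrader turned on degrader 2. MXD4 (ENSG00000123933, chromosome 4 from 2247432 to 2262294, minus strand) had 101, 51.7, 97.0 and 101 CPM in degrader 1 to 4, against 73.7, 76.5, 56.2 and 68.9 CPM in DMSO. Degrader 1, 3 and 4 were above all DMSO libraries and degrader 2 was below all of them. Over all libraries MXD4 had a log2 fold change of 0.36 ± 0.21 (edgeR adjusted p = 0.370). Without degrader 2 it was 0.52 ± 0.10, a fold of 1.44, and was called (adjusted p = 0.00120). The means were then 99.5 ± 2.15 CPM with the degrader (SD, n = 3) and 68.8 ± 8.96 CPM in DMSO (SD, n = 4). In the knockout MXD4 had 92.5, 136, 142 and 135 CPM in p300 KO 1 to 4, against 134, 134, 120.3 and 132 CPM in NTC. There too the mitochondria-rich library was the lowest of its group, and it alone was below the NTC range. The other 3 were above it. MXD4 differed by 0.01 ± 0.10 on the log2 scale (edgeR adjusted p = 0.978), and by 0.10 ± 0.05 (0.127) without p300 KO 1. The nearer edge of MXD4 lies 265 kb beyond the end of NSD2, the gene of a histone methyltransferase.

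The 2 effects on MXD4 differed once both mitochondria-rich libraries were left out. The effect in the knockout less the effect of the degrader was then −0.45 ± 0.12 (edgeR adjusted p = 0.00547). With all 16 libraries it was −0.39 ± 0.26 (0.429), and leaving out degrader 2 alone gave an adjusted p of 0.0287. MXD4 was the member with a called difference between the experiments, and only in those fits.

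MXI1, also named MXD2, was lower with the degrader when degrader 2 was left out. It had 10.0, 12.8, 11.2 and 10.4 CPM in degrader 1 to 4, against 11.4, 15.4, 15.9 and 14.4 CPM in DMSO. Degrader 2 was the highest of the treated libraries and DMSO 1 the lowest of its group, which made the ranges overlap. The log2 fold change was −0.36 ± 0.15 (edgeR adjusted p = 0.213) with all libraries and −0.44 ± 0.12 (0.0117) without degrader 2, when the groups no longer overlapped. In the knockout it had 21.8, 23.1, 20.2 and 22.6 CPM, against 25.5, 27.4, 25.4 and 20.6 CPM in NTC. NTC 4 lay within the knockout range, and the difference was not called (−0.12 ± 0.10, adjusted p = 0.423; −0.16 ± 0.08 and 0.0916 without p300 KO 1). MXI1 (ENSG00000119950) occupies positions 110207605 to 110287365 of chromosome 10, plus strand.

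MXD1, the founding antagonist, which rises in many cells as they mature, had the lowest level of them per exon length. It had 5.61, 5.93, 5.33 and 5.48 CPM with the degrader, against 5.70, 4.18, 4.73 and 4.77 CPM in DMSO. It had 9.14, 6.90, 8.33 and 8.61 CPM in p300 KO, against 6.86, 6.66, 7.69 and 5.95 CPM in NTC. Every perturbed library lay above at least 3 of its 4 control libraries, and the ranges overlapped. Its fold change on the log2 scale was 0.21 ± 0.15 with the degrader (edgeR adjusted p = 0.459) and 0.33 ± 0.13 in p300 KO (0.117). Without the mitochondria-rich library it was 0.17 ± 0.15 (0.370) and 0.24 ± 0.11 (0.0714). MXD1 (ENSG00000059728) spans 69897688 to 69942945 of chromosome 2, plus strand.

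MXD3, the family member linked to S phase, had overlapping libraries in both experiments. It had 46.5, 48.6, 54.0 and 49.6 CPM with the degrader, against 51.9, 44.7, 47.4 and 39.4 CPM in DMSO. It had 45.8, 41.8, 44.4 and 38.2 CPM in p300 KO, against 38.2, 41.0, 38.3 and 41.5 CPM in NTC. The highest library was degrader 3 and the lowest were in p300 KO and NTC. On the log2 scale MXD3 differed by 0.13 ± 0.12 for the degrader (edgeR adjusted p = 0.577) and 0.15 ± 0.09 for p300 KO (0.258), and both turned just below 0 under total count scaling. Its value is uncertain, because 17.97% of its exon bases are shared with RAB24 on the same strand and 22.5% with PRELID1 on the opposite strand. MXD3 (ENSG00000213347) spans 177301461 to 177312757 of chromosome 5, minus strand.

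MNT, the broadly expressed antagonist that opposes MYC in resting and dividing cells alike, was the antagonist called lower in the knockout. MNT (ENSG00000070444, chromosome 17 from 2384060 to 2401118, minus strand) had 20.2, 19.2, 15.9 and 16.7 CPM in p300 KO 1 to 4, against 27.3, 24.4, 25.8 and 24.9 CPM in NTC. Each knockout library was below each NTC library. The means were 18.002 ± 2.02 CPM in p300 KO and 25.6 ± 1.24 CPM in NTC (SD, n = 4 each). MNT was lower by a log2 fold change of −0.46 ± 0.11 (edgeR adjusted p = 0.0209), and −0.55 ± 0.07 (3.05e-08) without p300 KO 1, the highest knockout library. The call was lost when p300 KO 3, p300 KO 4 or any NTC library was left out, with adjusted p from 0.0503 to 0.0669 and log2 fold changes from −0.48 to −0.38. It was also lost in the fit on all 16 libraries (0.0653).

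With the degrader MNT had 13.0, 22.6, 12.9 and 10.9 CPM in degrader 1 to 4, against 22.3, 20.2, 20.5 and 20.3 CPM in DMSO. Degrader 2 lay above the whole DMSO range and the other 3 treated libraries lay far below it. The log2 fold change was −0.50 ± 0.22 (edgeR adjusted p = 0.244) with all libraries. Without degrader 2 it was −0.77 ± 0.10 (7.85e-05), a fold of 0.586 that is almost the same as the fold of MYC in that fit, 0.585. Fitted on all 16 libraries it was just called (0.0492). The effect in p300 KO less that of the degrader was 0.02 ± 0.23 (0.983), and 0.19 ± 0.12 (0.255) without both mitochondria-rich libraries. An antisense gene that shares 12.2% of the exon bases of MNT had 0 counts in all libraries.

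MGA, which carries a T-box besides the MAX-binding domain, was dominated by the same library. It had 31.5, 91.0, 29.2 and 32.1 CPM in degrader 1 to 4, against 33.6, 36.0, 42.4 and 34.8 CPM in DMSO. Degrader 2 was far above every other library in the series, and the remaining 3 treated libraries were below all DMSO libraries. For MGA the log2 fold change was 0.33 ± 0.37 (edgeR adjusted p = 0.662) with all libraries and turned to −0.25 ± 0.10 (0.0515) without degrader 2. In the knockout MGA had 44.0, 28.2, 27.6 and 29.2 CPM in p300 KO 1 to 4, against 28.7, 27.7, 27.3 and 25.8 CPM in NTC. Here p300 KO 1 stood above the rest, and the other 3 overlapped NTC. In this comparison it was 0.30 ± 0.17 (edgeR adjusted p = 0.258), and 0.06 ± 0.06 (0.454) without p300 KO 1. The effect in p300 KO less that of the degrader was 0.29 ± 0.11 (0.0501) without both of these libraries, just above the threshold. MGA (ENSG00000174197) spans 41621224 to 41773081 of chromosome 15, plus strand. Its exons span 17.7 kb, the longest of the network, against 3.00 kb for MYC.

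**Figure D2:**
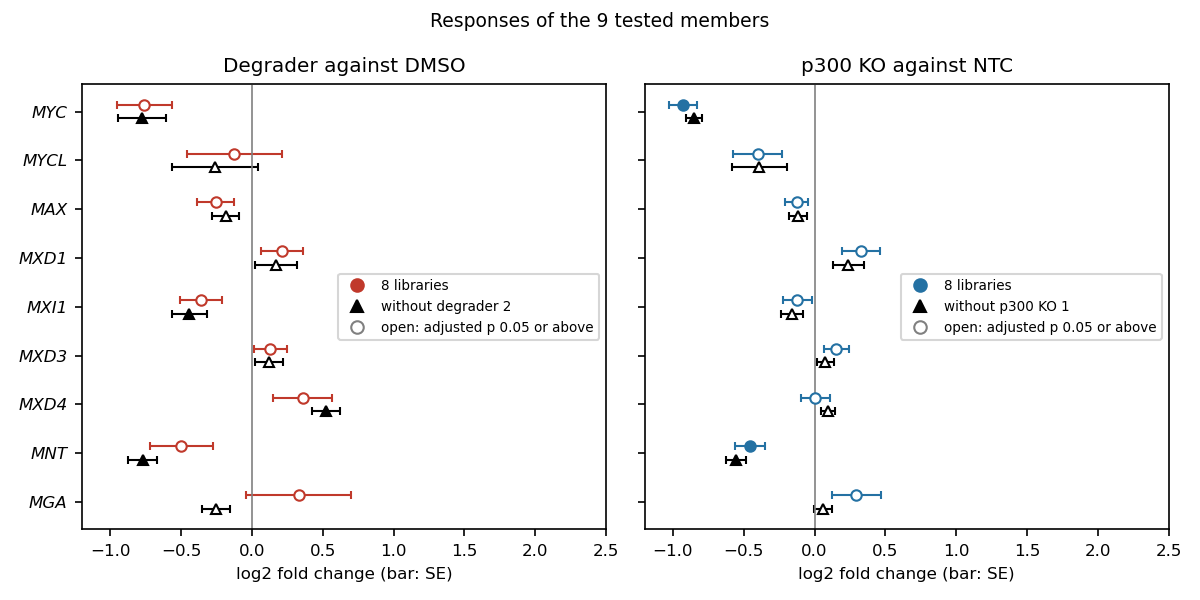
Log2 fold change of the 9 tested members, degrader against DMSO in the left panel and p300 KO against NTC in the right panel; bars are SE from edgeR, circles use 8 libraries, triangles leave out the mitochondria-rich library, and filled symbols have an adjusted p under 0.05. MYC and MNT are filled in both fits of the knockout, and MYC, MXI1, MXD4 and MNT are filled with the degrader only without degrader 2.

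Counted together, 0 of the 9 tested members were called with the degrader, where edgeR called 4.76% of all 15872 genes tested, 1.64% higher and 3.12% lower. At an unadjusted p under 0.05 there were 2, MYC and MXI1, and DESeq2 called 1 and limma-voom 0. The libraries of 1 member, MYC, did not overlap, against 16.7% of all genes. Without degrader 2, 4 of 9 were called (MXD4 higher, MYC, MXI1 and MNT lower), where 38.5% of all 16297 genes were called, and 5 did not overlap, against 44.9% of genes. In the knockout 2 of 9 were called, MYC and MNT, both lower, where 17.0% of 17350 genes were called, 6.23% higher and 10.7% lower. The libraries of the same 2 members did not overlap, against 27.6% of genes. Without p300 KO 1 again 2 were called, both lower, against 40.9% of genes, and 3 did not overlap, against 41.6%. Read against these shares, counts this small show nothing particular to the network as a group. The median log2 fold change of the 9 members was −0.12 in both comparisons, against 0.05 and 0.02 over all genes tested. In the difference between the effects 0 of 9 were called, where 6.58% of genes were (2.82% above 0 and 3.76% below), and 0 had an unadjusted p under 0.05, with 0 called by DESeq2 and 0 by limma-voom. Without both mitochondria-rich libraries 1 of 9 was called, MXD4, against 32.0% of genes.

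CPM were divided by the exon length in kilobases to compare levels of different members. That length covers all annotated exons of a gene and not the transcripts expressed here, so the order of members depends on it. By CPM alone MXD4 was above MYC in the controls too. Means there were 130 against 84.8 CPM in NTC, and 68.8 against 53.8 CPM in DMSO. Exon bases shared with other genes made up 3.73% of MXD1 (SNRNP27, same strand) and, with opposite-strand transcripts, 3.77% of MYCN (MYCNOS), 4.46% of MYCL (MYCL-AS1), 4.15% of MAX, 4.45% of MXI1 and 2.89% of MGA. FNTB, CHURC1-FNTB and MIR4706 in MAX, MIR626 in MGA and pseudogenes in MXI1 and MGA overlapped no exon base. Per exon length MYC led the network in the control groups. In DMSO it had 17.9 CPM per kb, followed by MAX (9.77), MXD4 (9.75) and MXD3 (8.90), whose library ranges overlapped one another. In NTC it had 28.3 CPM per kb, with MXD4 next (18.4) and then MAX (8.49) and MXD3 (7.71). With the degrader MXD4 (12.4 CPM per kb), MYC (10.5), MXD3 (9.63) and MAX (8.10) formed a row in which each overlapped the next. In p300 KO MXD4 (17.9 CPM per kb) and MYC (14.4) overlapped and stood above MXD3 (8.26) and MAX (7.50).

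Without the mitochondria-rich libraries MXD4 was above MYC in both perturbed groups, with no overlap. The levels were 14.1 CPM per kb for MXD4 and 10.6 CPM per kb for MYC with the degrader, and 19.5 and 15.5 CPM per kb in p300 KO. The remaining levels are given with all 4 libraries of each group, where the rest followed in a similar order. MXI1 was at 2.41 CPM per kb with the degrader, 3.10 in DMSO, 4.75 in p300 KO and 5.37 in NTC, MNT at 1.70, 2.38, 2.06 and 2.93, and MGA at 2.60, 2.08, 1.83 and 1.55 CPM per kb in the same groups. MXI1, MNT and MGA overlapped their neighbours in that order in DMSO and, with all libraries, with the degrader. Without degrader 2 the degrader levels were 2.29 for MXI1, 1.75 for MGA and 1.40 CPM per kb for MNT, with no overlap between neighbours. MXD1 was at 0.76 to 1.30 CPM per kb and MYCL at 0.31 to 0.43 CPM per kb, each with ranges clear of its neighbours.

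**Figure D3:**
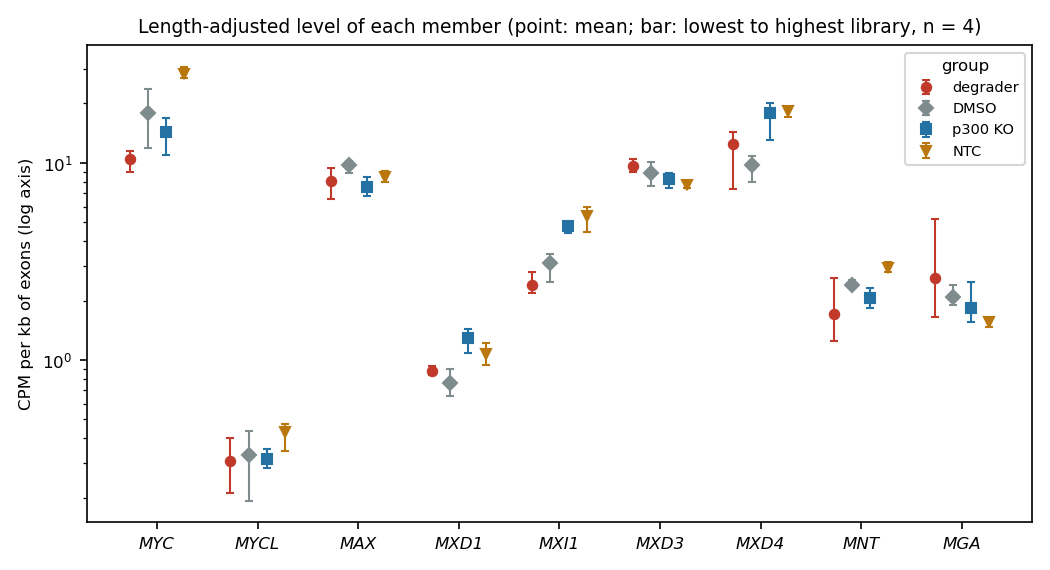
Level per exon length, in CPM per kilobase on a log axis, of the 9 members other than MYCN; for each gene the groups run degrader, DMSO, p300 KO and NTC, points are means and bars reach from the lowest to the highest of 4 libraries. MYC is the highest member in DMSO and NTC, while MXD4 has the highest mean with the degrader and in p300 KO.

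The balance of MYC against its antagonists was taken as MYC counts per kb over the sum of the counts per kb of MXD1, MXI1, MXD3, MXD4, MNT and MGA in the same library, a ratio that needs no scaling between libraries. It was 0.379, 0.363, 0.374 and 0.298 in degrader 1 to 4, against 0.616, 0.847, 0.457 and 0.733 in DMSO 1 to 4. It was 0.333, 0.454, 0.390 and 0.408 in p300 KO, against 0.809, 0.720, 0.757 and 0.766 in NTC. The perturbed libraries were below all control libraries in both experiments. The means were 0.354 ± 0.0377 with the degrader and 0.663 ± 0.167 in DMSO, and 0.396 ± 0.0502 in p300 KO and 0.763 ± 0.0367 in NTC (SD, n = 4 each). On the log2 scale the mean difference was −0.88 for the degrader and −0.95 for p300 KO. Without degrader 2 and p300 KO 1 the ratios were much the same, at 0.351 ± 0.0455 with the degrader and 0.417 ± 0.0332 in p300 KO (SD, n = 3 each). The ratio has no p-value, since it is a score over chosen members, and its size depends on the exon lengths used.

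The summed antagonists moved less than MYC. Their summed level, over 6 genes, was 29.6 ± 1.039 CPM per kb with the degrader and 27.0 ± 1.33 in DMSO (SD, n = 4 each). It was 36.1 ± 2.18 in p300 KO and 37.1 ± 1.18 in NTC (SD, n = 4 each). Without degrader 2 the sum was 30.1 ± 0.495 with the degrader (SD, n = 3). Its range of 29.6 to 30.6 was then above that of DMSO, 25.6 to 28.3. Without p300 KO 1 the sum was 37.2 ± 0.712 in p300 KO (SD, n = 3), with a range that overlapped NTC. MXD4 made up the largest part of that sum, with 41.6% ± 10.5 with the degrader, 36.1% ± 3.82 in DMSO, 49.3% ± 6.39 in p300 KO and 49.7% ± 1.501 in NTC. MXD3 came next, at 32.5% ± 1.67 with the degrader, 32.9% ± 2.84 in DMSO, 23.0% ± 2.83 in p300 KO and 20.8% ± 0.998 in NTC. The share of MNT was smaller in each perturbed group than in its control, at 5.79% ± 2.29 with the degrader and 8.85% ± 0.369 in DMSO, and at 5.75% ± 0.951 in p300 KO and 7.92% ± 0.462 in NTC. Without the mitochondria-rich library the MXD4 share was 46.8% ± 1.72 with the degrader and 52.5% ± 0.704 in p300 KO. All these shares depend on the exon lengths used.

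**Figure D4:**
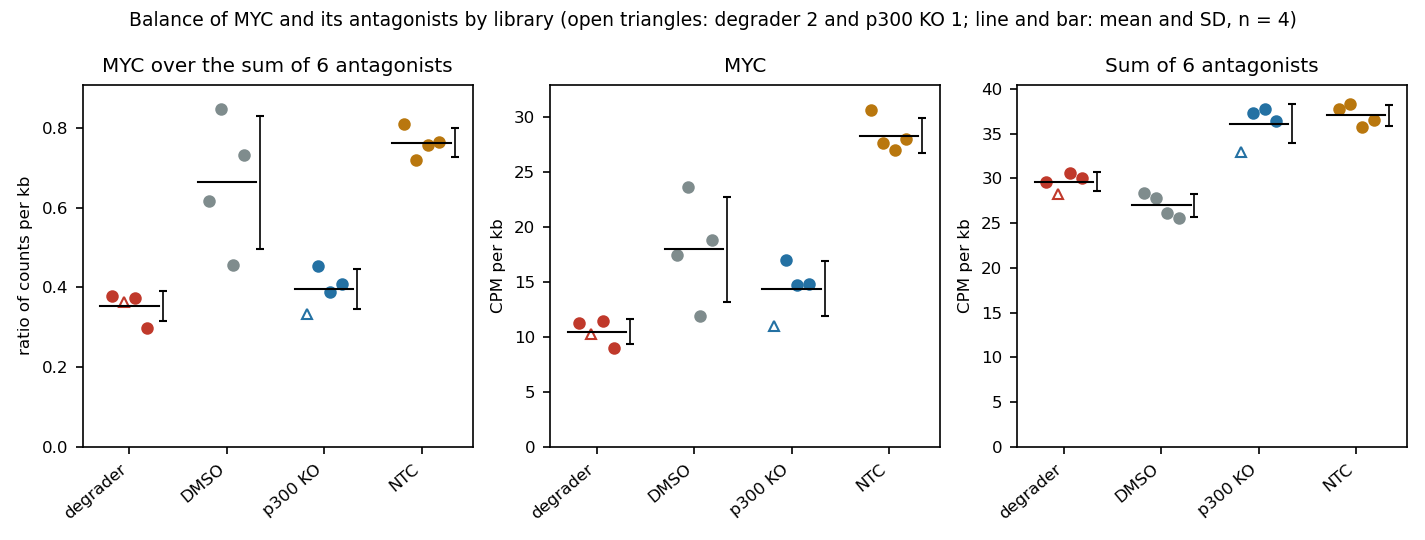
Ratio of MYC to the summed antagonists (left), MYC (middle) and the summed antagonists (right), the last 2 in CPM per kilobase, for each library with degrader left of DMSO and p300 KO left of NTC. Points are libraries, open triangles are degrader 2 and p300 KO 1, and lines and bars are the mean and SD of 4 libraries; the ratio is at most 0.454 in the perturbed libraries, and DMSO 3 is the lowest control at 0.457.

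The genes whose levels ran most like that of MYC were found by the distance between centred log2 CPM over the libraries. Over 16 libraries they were SNAI3, of the Snail family of zinc finger repressors (distance 0.659), the membrane protease ADAM8 (0.856), FAM86B3P (0.914), IRF2BPL (0.923) and the RING finger gene RNF44 (0.968), where the median of 9051 genes was 2.60. Over the 14 libraries left without the mitochondria-rich ones they were SNAI3 (0.587), ARHGAP10 (0.753), FAM167A (0.818), FAM86B3P (0.8293) and ADAM8 (0.855), against a median of 2.36. The libraries share the same groups, so these distances mostly compare 4 group levels. FAM86B3P belongs to a family of near-identical copies and its count is uncertain.

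Few partners of the antagonists were called with all libraries, and more were called without degrader 2 or p300 KO 1. With all libraries edgeR called 4.76% of all genes with the degrader, 1.64% higher and 3.12% lower. In p300 KO it called 17.0%, 6.23% higher and 10.7% lower. Without degrader 2 it called 38.5% of all genes, 18.2% higher and 20.3% lower. Without p300 KO 1 it called 40.9%, 19.1% higher and 21.8% lower. For the difference of effects with all libraries 2.82% were called above 0 and 3.76% below. The counts of each list are set against these shares. MLX is the MAX-like partner shared by MNT, MXD1 and MXD4 and by the glucose-sensing factors MLXIP and MLXIPL, and TXNIP and ARRDC4 are known targets of MLXIP and MLXIPL. With the degrader 2 of 5 genes of this arm were higher, TXNIP (1.17 ± 0.21, edgeR adjusted p = 0.0186) and ARRDC4 (0.89 ± 0.21, 0.0469). TXNIP had 123, 64.1, 125 and 123 CPM with the degrader, against 53.3, 47.8, 41.0 and 53.6 CPM in DMSO. Every treated library was above every DMSO library, with degrader 2 the lowest. Neither gene was called in any of the 7 leave-outs of another library, with adjusted p up to 0.0772 for TXNIP and 0.149 for ARRDC4. Without degrader 2 MLXIP was called lower as well. In p300 KO 0 of 5 were called by edgeR and limma-voom, 2 had an unadjusted p under 0.05 and DESeq2 called 1. TXNIP had 118, 199.8, 200.2 and 185 CPM in p300 KO 1 to 4, against 131, 152, 144 and 132 CPM in NTC. Here p300 KO 1 was below all NTC libraries and the other 3 were above them. TXNIP differed by 0.38 ± 0.13 with all libraries (edgeR adjusted p = 0.0777), and without p300 KO 1 it was the 1 gene of 5 called, higher by 0.50 ± 0.05 (1.50e-10).

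Of 16 SIN3 complex genes, the corepressor that MXD proteins and MNT bring to DNA, edgeR called 0 with the degrader (2 at an unadjusted p under 0.05, 1 by DESeq2, 0 by limma-voom). In p300 KO it called 1, the scaffold SIN3B (0.32 ± 0.09, adjusted p = 0.0330), a call kept only without p300 KO 1 among the 8 leave-outs. Without degrader 2, 6 of 16 were called, all higher (BRMS1, ING1, SAP30L, SAP30, ING2 and BRMS1L). Without p300 KO 1, 4 were higher (SIN3B, HDAC1, ARID4B and BRMS1L) and SAP30 was lower. Of 10 PRC1.6 partners of MGA, 0 were called with the degrader (3, 3 and 0 by the same measures). In p300 KO PCGF6 was higher (0.28 ± 0.07, 0.0316) and L3MBTL2 was lower (−0.32 ± 0.07, 0.0184). The call of PCGF6 held only without p300 KO 1 or NTC 1, and that of L3MBTL2 was lost without p300 KO 4, NTC 1 or NTC 4. Without degrader 2, 3 of 10 were higher (TFDP1, CBX3 and E2F6) and 2 lower (RYBP and L3MBTL2). When p300 KO 1 was left out, 3 were higher (RING1, PCGF6 and RNF2) and L3MBTL2 was lower.

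On the side of MYC, 0 of 15 cofactors were called with the degrader (3 at an unadjusted p under 0.05, 0 by DESeq2 and limma-voom). In p300 KO RUVBL1, an ATPase of the TIP60 and INO80 complexes, was lower (−0.47 ± 0.08, edgeR adjusted p = 0.00385), as was HCFC1 (−0.25 ± 0.07, 0.0362), while EP400 was higher (0.24 ± 0.07, 0.0459). The calls of HCFC1 and EP400 were lost in all leave-outs that keep p300 KO 1. Without degrader 2, 4 of 15 were higher (PAF1, RUVBL1, KAT5 and KAT2A) and 2 lower (TRRAP and EP400). Without p300 KO 1, 4 were higher (BPTF, ZBTB17, CCNT1 and EP400) and 3 lower (RUVBL1, HCFC1 and KAT2A). Of 18 genes of MYC protein turnover, 0 were called with the degrader (2, 0 and 0 by the same measures), and in p300 KO the kinase AURKA, which is known to protect MYCN protein from breakdown, was higher (0.30 ± 0.07, 0.0161). That call was lost without NTC 1, NTC 2 or NTC 3. Without degrader 2, 5 of 18 were higher and 2 lower, and without p300 KO 1, 9 were higher and 3 lower. AURKA, PLK1 and BTRC were among the higher genes and FBXW7 and USP36 among the lower in both of these fits. Protein levels of MYC and MAX were not measured here.

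Among 15 known regulators of MYC transcription, the plasma cell factors IRF4 and POU2AF1 were lower in both experiments. IRF4, which sustains myeloma cells and binds at MYC, had 243 ± 12.2 CPM with the degrader and 452 ± 31.9 CPM in DMSO (SD, n = 4 each), which is −0.88 ± 0.12 as log2 fold change (edgeR adjusted p = 0.00475). It had 333 ± 27.4 CPM in p300 KO and 472 ± 16.1 CPM in NTC (−0.45 ± 0.06, 0.00202). Both calls of IRF4 held in all 8 leave-outs of 1 library. Under total count scaling neither held (edgeR adjusted p = 0.184 with the degrader and 0.110 in p300 KO). The B cell coactivator POU2AF1 was also lower, by −0.53 ± 0.11 with the degrader (0.0349) and −0.34 ± 0.06 in p300 KO (0.00561). The degrader call of POU2AF1 held only in the leave-out of degrader 2 (adjusted p up to 0.142 in the other 7). In p300 KO the list also held EP300 itself, the DNA-binding activator FUBP1 lower (−0.25 ± 0.07, 0.0342, called only without p300 KO 1 or p300 KO 3 among the leave-outs) and the p300 paralogue CREBBP higher (0.32 ± 0.06, 0.00850). CREBBP was called in all 8 leave-outs but not under total count scaling (0.701), with no filter on low counts (0.117) or in the fit on all 16 libraries (0.326). Without degrader 2, 7 of 15 were lower and 3 higher. The lymphoid factor IKZF3 was then lower by −1.13 ± 0.10 (edgeR adjusted p = 2.60e-06), against −0.68 ± 0.31 (0.260) with all libraries. Without p300 KO 1, 8 were lower and 3 higher, with IKZF3 at −0.38 ± 0.05 (4.60e-08).

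Of 35 genes that MYC is known to activate, 1 was called higher and 1 lower with the degrader, with a median log2 fold change of 0.02 against 0.05 over all genes. NOP56, of the box C/D RNA modification complex, was higher (0.83 ± 0.14, edgeR adjusted p = 0.0160), and TERT, the catalytic subunit of telomerase, was lower (−0.59 ± 0.12, 0.0328). The call of NOP56 held only without degrader 2 or DMSO 2, and that of TERT only without degrader 2 (adjusted p up to 0.0755 and 0.148). Without degrader 2, 8 were higher and 2 lower, where 18.2% and 20.3% of all genes were called in those directions.

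In p300 KO the 35 had a median of −0.18 against 0.02 over all genes. Where 6.23% of all genes were called higher and 10.7% lower, 0 of the 35 were higher and 6 lower. They included the nucleolar chaperone gene NOLC1 (−0.41 ± 0.07, edgeR adjusted p = 0.00392), the cyclin CCND2 (−0.41 ± 0.08, 0.00700), the ribosome assembly gene RRS1 (−0.57 ± 0.13, 0.0161) and POLR1B, a subunit of RNA polymerase I (−0.29 ± 0.07, 0.0238). Without p300 KO 1, 25 were lower and 3 higher, where 21.8% and 19.1% of all genes were called in those directions. POLR1B lost its call without p300 KO 2, p300 KO 3 or NTC 1, 2 or 3, and RRS1 without NTC 3 or NTC 4. The effect in p300 KO was below that of the degrader for 3 of the 35, NOP56 (−1.08 ± 0.16, 6.51e-04), NCL (−0.54 ± 0.14, 0.0311) and EIF2S1 (−0.88 ± 0.25, 0.0450), and above it for 0.

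Of 10 genes that MYC is known to repress, none was called higher by edgeR in either experiment with all libraries. With the degrader edgeR called 0 of 10 (2 at an unadjusted p under 0.05, 1 by DESeq2, 0 by limma-voom). In p300 KO, where 17.0% of all genes were called and 10.7% called lower, 4 of 10 were called, all lower. They were the cyclin CCND1 (−0.72 ± 0.06, edgeR adjusted p = 7.90e-05), the cell cycle inhibitors CDKN1C (−1.31 ± 0.14, 4.56e-04) and CDKN2B (−0.85 ± 0.16, 0.00721), and the myeloid factor CEBPA (−0.62 ± 0.14, 0.0173). CEBPA kept its call only without p300 KO 1, p300 KO 3 or NTC 2. Without the mitochondria-rich library genes were called in both directions. With the degrader 3 were then higher (FTH1, GADD45A and CEBPA) and 2 lower (CDKN1C and CDKN1A), and in p300 KO 3 were higher (CDKN1A, FTH1 and NDRG2) and 5 lower, the same 4 and GADD45A. For CCND1 the effect in p300 KO was below that of the degrader (−0.68 ± 0.12, 0.00297).

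Around MYC on chromosome 8, 6 of 12 listed transcripts had enough counts for a test with the degrader and 7 in p300 KO. TRIB1, the pseudokinase gene upstream of MYC, was the 1 called in each with all libraries. It had 14.4, 10.9, 11.9 and 11.6 CPM with the degrader, against 38.9, 33.7, 28.9 and 38.8 CPM in DMSO. It had 18.8, 26.8, 26.4 and 25.7 CPM in p300 KO, against 39.4, 40.5, 38.7 and 37.4 CPM in NTC. Neither comparison had overlapping libraries, and the degrader libraries were the lowest of all. The log2 fold changes were −1.505 ± 0.14 (edgeR adjusted p = 0.00109) and −0.62 ± 0.08 (0.00165), and their difference was called (0.84 ± 0.18, 0.0109). All 8 leave-outs of each experiment kept these calls. Total count scaling ended the calls in both experiments (edgeR adjusted p = 0.0540 with the degrader and 0.0634 in p300 KO). PVT1, the long RNA next to MYC, had 20.6, 45.4, 20.9 and 18.1 CPM with the degrader, against 27.2, 26.0, 31.1 and 29.5 CPM in DMSO. As in MGA, degrader 2 was far above and the other 3 were below all DMSO libraries, and PVT1 was lower without degrader 2 (−0.52 ± 0.10, 0.00108) but not with it (−0.12 ± 0.29, 0.858). CASC11 and SQLE were also lower in p300 KO when p300 KO 1 was left out (−0.92 ± 0.27 and −0.21 ± 0.08; edgeR adjusted p = 0.00471 and 0.0260).

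Of 14 other basic helix-loop-helix factors that bind E-boxes, 1 was called in each experiment with all libraries. Without degrader 2, 3 were higher and 5 lower, and without p300 KO 1, 4 were higher and 3 lower. BHLHE40, a repressor that binds CACGTG, had 7.25 ± 1.77 CPM with the degrader and 48.2 ± 2.63 CPM in DMSO, and 39.8 ± 9.23 CPM in p300 KO and 46.8 ± 7.07 CPM in NTC (SD, n = 4 each). Its fall with the degrader was −2.75 ± 0.17 (edgeR adjusted p = 2.63e-04), larger than that of any member, and the difference between the experiments was called (2.54 ± 0.25, 2.59e-05). Its close paralogue BHLHE41 was called lower in p300 KO (−0.66 ± 0.13, 0.00862).

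**Figure D5:**
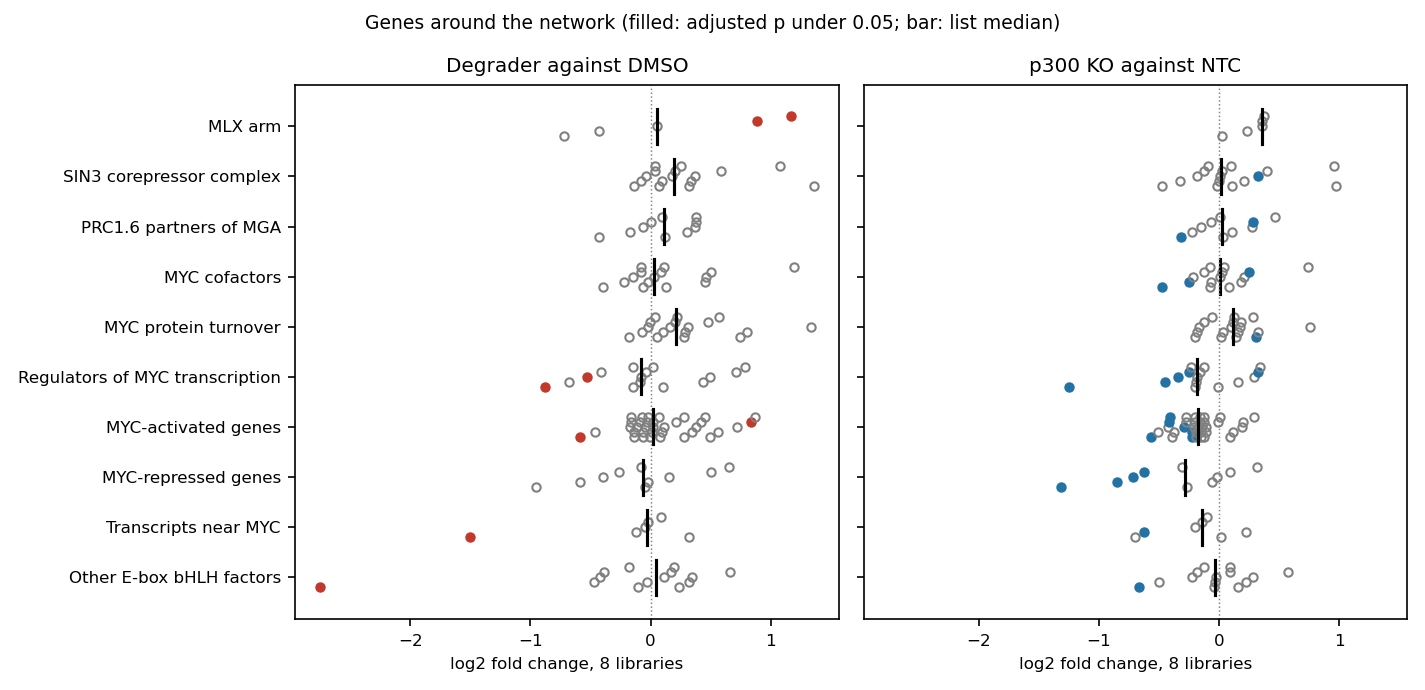
Log2 fold change of each tested gene in 10 lists around the network, degrader against DMSO on the left and p300 KO against NTC on the right, from fits on 8 libraries. Filled points have an edgeR adjusted p under 0.05 and bars mark list medians; the lowest filled point on the left is BHLHE40 at −2.75, and the MYC-activated genes have their median at 0.02 on the left and −0.18 on the right.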

How the data were processed

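The deposited files hold integer read counts per gene, 1 table for each library, with exon length and position. Subread 1.5.2 (featureCounts), STAR 2.5.2b, Trimmomatic 0.36 and DESeq2 1.16.1 are named for GRCh38, per the submitters' processing notes, without their settings. The library kit was NEBNext Ultra II RNA, per the labels' protocols. Whether strand was used, how reads with several matches were treated and which annotation release was taken is not given in the sources used here, so genes with shared exons cannot be told apart. Positions of all 10 members were the same in GENCODE 29.

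The members and gene lists were chosen with earlier results of these data known. Each comparison was fitted on its own 8 libraries with edgeR 4.0.16 in R 4.3.3: filterByExpr, TMM, quasi-likelihood test on group, and Benjamini-Hochberg adjustment over all genes tested, called under 0.05. The difference of effects, p300 KO less NTC minus degrader less DMSO, was a contrast fitted over 16 libraries. The SE is the absolute log2 fold change over the square root of F. Levels per kb divide by the deposited exon length. Limits from 0 counts cover counting error only and use library totals without TMM scaling. The script was tested on simulated data.

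Genes outside the network were named by rule: of each list, up to 4 called genes with the smallest p, or every called gene where 5 or fewer were called, and the 5 genes nearest to MYC among those with an average log2 CPM of at least 3. No pair of libraries was identical; counts within a group differed by a chi-square of 2.97 to 65.8 per degree of freedom, and by 430 to 954 in pairs with degrader 2 or p300 KO 1. Other settings tried were total count and RLE scaling, no filter on low counts, DESeq2 1.42.0, limma-voom (limma 3.58.1), a replicate block, removal of mitochondrial genes, a fit on all libraries and leaving out each library. Under total count scaling the divisor includes the mitochondrial counts, also in degrader 2 and p300 KO 1. PVT1 and genes named from fits without degrader 2 or p300 KO 1 were chosen after their values were seen. A further marker list is not reported here.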

Additional observations from a re-analysis of the deposited data

Results flagged for a closer look

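A library was marked where its gap to the nearest of the other 3 in its group took up more of the group's range than Dixon's 95% critical value; chance marks about 1 in 20 groups, and 40 groups of 4 were looked at. MXD4 was marked at 51.7 CPM in degrader 2, at 92.48 CPM in p300 KO 1 and at 120.3 CPM in NTC 3. MGA was marked at 90.99 CPM in degrader 2 and at 44.02 CPM in p300 KO 1. MNT was marked at 22.28 CPM in DMSO 1. The marks in degrader 2 and p300 KO 1 fall on the libraries with 64.9% and 47.7% mitochondrial counts, and the part of that share in these values was not tested.

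The effect of p300 KO and that of the degrader differed, by the edgeR test of the difference itself (p300 KO effect minus degrader effect, log2), for 8 genes around the network. It was above 0 for BHLHE40 (2.543) and TRIB1 (0.842). It was below 0 for EP300 (−2.066), NOP56 (−1.076), RUVBL1 (−1.011), EIF2S1 (−0.8777), CCND1 (−0.6772) and NCL (−0.5408). The calls of BHLHE40, TRIB1, EP300, NOP56 and CCND1 held in all 16 leave-outs of 1 library, those of RUVBL1, NCL and EIF2S1 in 7, 4 and 2. Among the members MXD4 had a called difference (−0.4542) when degrader 2 and p300 KO 1 were both left out.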

How the results depend on the processing

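Counts of called genes depended strongly on the setting. With the degrader edgeR called 755 genes and 0 members; total count scaling gave 164 genes, no filter on low counts 394, DESeq2 1796 with 1 member, a fit on all 16 libraries 2294 with 2 members, and leaving out 1 library 197 to 6278 genes with 0 to 4 members, the highest without degrader 2. In p300 KO the counts were 2944 genes and 2 members, 1265 genes with total count scaling, 1484 with 1 member in the fit on all libraries, and 1542 to 7246 with 1 to 2 members on leaving out 1 library, the highest without p300 KO 1. For the difference they were 1189 genes and 0 members, 319 with total count scaling, 585 with no filter, 2095 with DESeq2, 5901 with 1 member without both mitochondria-rich libraries, and 766 to 4611 with 0 to 1 members on leaving out 1 library. Total count scaling moved the median of all genes to −0.09 with the degrader, against 0.05 with TMM, and to −0.14 in p300 KO, against 0.02 with TMM, and the calls were then 19 higher and 145 lower with the degrader, against 260 and 495, and 61 higher and 1204 lower in p300 KO, against 1081 and 1863 (279 and 1205 in the fit on all libraries). Of the named calls with all libraries, it kept BHLHE40 with the degrader and MYC, MNT, EP300, CCND1, CDKN1C, CDKN2B and RRS1 in p300 KO. The cause of these shifts was not tested. The drop in the log2 ratio of MYC to its antagonists kept its direction in all 11 other settings of each comparison (−1.04 to −0.75 and −1.02 to −0.87 on leaving out 1 library).

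Same-numbered deviations correlated at −0.57 to 0.32 in the first experiment and −0.28 to 0.10 in the second. In either experiment 0 of 8 libraries correlated best with their own number. These deviations included the mitochondria-rich libraries, which stood far from the rest of their groups. The check therefore cannot tell whether replicate numbers pair the libraries. A replicate block gave 24 genes for the degrader, 1304 for p300 KO and 306 for the difference; under the block MXD4 in p300 KO was −0.004055 and the difference for MGA 0.07268.

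The changes of sign were in members that were not called. With the degrader total count scaling gave −0.0004283 for MXD3 and −0.0683 for MGA, and leave-outs gave −0.31 to 0.05229 for MYCL and −0.25 to 0.50 for MGA. In p300 KO MXD3 was −0.03803 with total count scaling. MXD4 was −0.1313 with total count scaling, −0.02435 with no filter, −0.003002 with limma-voom, −0.004028 without mitochondrial genes, −0.04077 in the fit on all libraries and −0.03872 to 0.10 in leave-outs. In the difference MNT was −0.01089 with RLE factors, −0.0001525 with DESeq2 and −0.11 to 0.24 in leave-outs. MGA was 0.1274 with total count scaling, 0.1152 with limma-voom, 0.2871 without both mitochondria-rich libraries and −0.23 to 0.46 in leave-outs. Leave-outs of MAX, MXD1 and MXD3 ran from −0.004251 to 0.17, −0.007053 to 0.15 and −0.07756 to 0.04785.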
